A study of Mus musculus with 22 samples.

Results

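Mouse embryonic stem (mES) cells of the genotype Hox-/- were compared before and after an adherent endoderm differentiation. The comparison takes in 5 RNA-seq libraries of the 22 in the series: 3 from Hox-/- cultures at the end of the differentiation and 2 from the undifferentiated Hox-/- mES cells, joined by gene identifier across the endoderm and mES count tables. All 5 carry the genotype Hox-/-, so the deletion is shared by both sides and the contrast measures differentiation within this line. The other cultures of the series are wild-type cells under the same 2 conditions and gastruloids, free-floating stem cell aggregates used as embryo models. Wild-type endoderm (3 libraries) and wild-type mES cells (2 libraries) served to test whether the 2 genotypes changed alike. They were also the reference for the summed Hox level. In addition they entered the joint fit, and so the count filter, the scaling and the estimate of spread behind the Hox-/- p-values.

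The mES cells grew with 10% serum, 100 ng/ml of the cytokine LIF, CHIR99021 (a GSK-3 inhibitor) at 3 µM and a MEK1/2 inhibitor at 1 µM. For differentiation about 50000 cells per well were plated in medium with 0.2% serum and B27. Activin A at 100 ng/ml and CHIR99021 at 3 µM were given at 24 h and again at 72 h, and cells were collected at 120 h. CHIR99021 is thus common to both cultures, whereas LIF and the MEK inhibitor are named for the mES medium alone. The labels give the cell type of the differentiated samples as mixed cells, and they do not say which Hox segments were deleted, how many clones the Hox-/- line comprises, or whether replicates are separate cultures. P-values therefore measure the spread between these samples, which may be technical. The mES and endoderm libraries stand in separate tables and the labels name no sequencing batch, so a batch between the tables and the culture cannot be told apart.

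As background, mES cells held with LIF and inhibitors of GSK-3 and MEK keep a naive pluripotent state whose transcription factors (Nanog, Esrrb, Klf4, Tfcp2l1 and others) sustain one another. Activin A acts through the Nodal receptors, and together with Wnt pathway activation by a GSK-3 inhibitor it leads pluripotent cells to a primitive streak-like state marked by T, Mixl1 and Eomes. Cells of the streak go on to definitive endoderm, marked by Sox17 and Foxa2, or to mesoderm, and cells that stay under Wnt and FGF signals take on the Cdx2, Evx1 and Fgf8 expression of the caudal embryo. Hox genes are normally switched on in these posterior cells in the order of their position in the clusters.

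The 5 libraries held 11.9 to 17.6 M (mega) counts, and all 10 libraries of the joint fit fell in that range. CPM stands for counts scaled by the library total. As a check of the genotype, summed Hox expression (39 genes) was 25.8 ± 3.10 CPM (SD, n = 3) in the Hox-/- and 859 ± 26.2 CPM (n = 3) in the wild-type endoderm libraries, so that the Hox-/- libraries held 3.01% of the wild-type sum. In Hox-/- mES cells the sum was 0.896 ± 0.634 CPM (n = 2), against 33.1 ± 3.77 CPM in wild type. Endoderm exceeded mES cells within the Hox-/- line in every library (exact permutation test, two-sided p = 0.2, the smallest that 3 against 2 libraries allow). Hoxa13, a posterior gene of its cluster, stood at 9.94, 9.23 and 6.55 CPM in Hox-/- endoderm. The strand used in counting is not given in the sources used here, so reads of a gene and of an annotated neighbour on the other strand cannot be told apart. Of the 39 genes, 33 stayed at the floor in both Hox-/- cultures, where the floor means that no library holds more than 3 counts (0.170 to 0.252 CPM over the libraries). Hoxa13 was only a part of the remaining sum, and the other Hox genes above the floor are not named here. Mitochondrially encoded RNAs took 0.909% to 1.42% of the counts.

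Differentiation changed most of the measured transcriptome of the Hox-/- line. Of 16251 genes tested, 13101 (80.6%) were called, that is, had an adjusted p under 0.05 in edgeR's quasi-likelihood test with Benjamini-Hochberg adjustment over all genes. Of these, 6938 (42.7% of those tested) rose in endoderm and 6163 (37.9%) fell. Because nearly everything moved, large changes are counted by size: 2612 genes (16.1%) rose at least 4-fold and 1607 (9.89%) fell at least 4-fold. These 4219 genes were 26.0% of those tested. A change of at least 16-fold on the fitted scale was found for 1233 genes that rose and 741 that fell. Genes at the floor in one culture enter these counts with fitted values, and they number 1166 at the floor in mES cells and called higher, and 537 at the floor in endoderm and called lower. A gene at the floor in mES cells passed the count filter only through other libraries and could hardly be found lower. Most list counts below are therefore also given for the members above the mES floor. Of the 14962 tested genes above that floor, 38.6% rose, 9.89% rose at least 4-fold and 41.2% fell. These shares, and those over all genes tested, are the background for every list count below. The median log2 fold change over all genes tested was 0.10. The genes that rose at least 4-fold took 9.77% to 10.0% of all counts in the 3 endoderm libraries and 0.819% to 0.839% in the 2 mES libraries. Those that fell at least 4-fold went from 7.48% and 7.54% of the counts in mES cells to between 0.930% and 0.952% in endoderm.

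**Figure D1:**
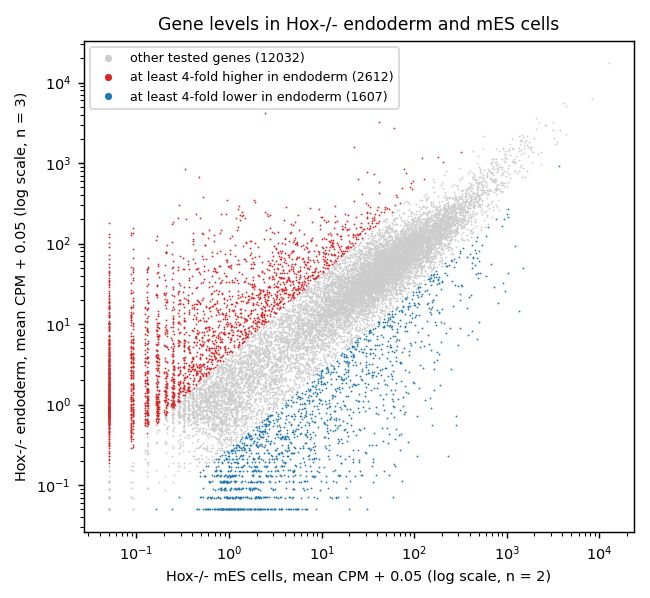
Mean CPM plus 0.05 of each tested gene in Hox-/- mES cells (x axis, n = 2) and Hox-/- endoderm (y axis, n = 3), both on log scales. Red points are the 2612 genes that rose at least 4-fold, blue points the 1607 that fell at least 4-fold, and the column at the left edge holds genes with no count in mES cells.

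Ranked by p-value, the leading genes among those that rose at least 4-fold, with libraries that did not overlap (which held for 86.1% of all genes tested), included structural and growth genes next to developmental regulators. Tpm1, which encodes a tropomyosin of actin filaments, stood at 39.9 and 43.6 CPM in mES cells and 3241, 3243 and 3128 CPM in endoderm (log2 fold change 6.18, SE 0.0604, edgeR adjusted p 8.18e-23). Hmga2, a chromatin protein of embryonic growth, went from 31.2 and 31.1 CPM to 789, 789 and 775 CPM (log2 fold change 4.57). The other genes that this ranking named were Peg3, Sox11 (7.39), Pmp22 (1264-fold or more above the mES floor), H19, App (7.08), Ccnd2 (7.44), Pxdn (7.47), Mest, T and Tmsb4x (4.62). At the other end stood Tfcp2l1, a naive pluripotency factor, at 1362 and 1382 CPM in mES cells and 14.3, 16.4 and 13.04 CPM in endoderm (log2 fold change -6.64, SE 0.0707, edgeR adjusted p 2.93e-23). Calcoco2, an autophagy receptor, fell from 227 and 235 CPM to 0.227, 0.123 and 0.189 CPM, and Tdh, the threonine dehydrogenase that mouse pluripotent cells depend on, from 841 and 790.2 CPM to 18.4, 16.8 and 19.3 CPM. Jam2 (-5.79), Cobl (-5.25) and Spp1 (-6.28) also fell. By absolute difference in CPM the largest gain after that of the translation elongation factor Eef1a1 (12856 and 12913 CPM to 16888, 17377 and 18177 CPM) was that of H19, and the largest loss was that of the chaperone Hsp90aa1, from 3474 and 3903 CPM to 877, 944 and 929 CPM.

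The naive pluripotency genes fell together. All 18 listed genes fell, where 37.9% of all genes tested did, and 16 of them fell at least 4-fold, where 9.89% of all genes did. Their median log2 fold change was -5.17, against 0.10 over all genes tested. Nanog (ENSMUSG00000012396, chromosome 6, 122707489 to 122714633 of mm10) was at 900.1 and 911 CPM in mES cells and 31.5, 31.98 and 32.1 CPM in endoderm, and Esrrb, an orphan nuclear receptor, at 971 and 935 CPM in mES cells and 25.1, 27.003 and 25.6 CPM in endoderm. The levels within a culture lay close together and the cultures were far apart (Nanog log2 fold change -4.91, SE 0.0582, edgeR adjusted p 8.89e-23; Esrrb -5.28, SE 0.0648, adjusted p 1.06e-22). Zfp42 (Rex1), a zinc finger marker of the naive state, went from 498 and 517 CPM to 10.1, 10.4 and 11.1 CPM. Fgf4, the FGF ligand that mES cells make, fell furthest of the list, from 279 and 292 CPM to 0.682, 0.554 and 0.756 CPM. Dppa5a went from 1526 and 1512 CPM to 50.5, 50.1 and 50.02 CPM. The Krüppel-like factor genes of the list fell to different depths: Klf4 went from 226 and 216 CPM to 8.07, 6.89 and 8.25 CPM, while Klf5 kept more, at 171 and 174 CPM and 21.8, 23.6 and 23.6 CPM. Tbx3, a T-box factor that mesoderm also uses, went from 234 and 221 CPM to 40.3, 41.2 and 41.9 CPM. As a share of the mES level, the endoderm level of the 18 genes had a median of 2.93% and was under 5% for 13 of them. The other 5 were Sall4, at 89.0% of its mES level (368 and 345 CPM in mES cells and 315, 322 and 315 CPM in endoderm), Dppa3 (28.4%), Tbx3 (18.1%), Klf5 (13.3%) and Tdgf1 (7.42%).

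Factors shared by naive and later pluripotent cells fell less far. Of 10 general pluripotency genes 9 fell and 1 rose, with a median of -3.94. Pou5f1 (Oct4) was at 1254 and 1216 CPM in mES cells and 102, 82.5 and 91.7 CPM in endoderm and thus kept 7.47% of its mES level, and Sox2 at 327 and 298 CPM in mES cells and 21.02, 18.8 and 19.97 CPM in endoderm kept 6.38%. Lin28a, an RNA-binding protein that blocks let-7 maturation, was the gene that rose, from 72.2 and 73.1 CPM to 146, 152 and 149 CPM. Among 11 tested genes of the formative and primed states, which follow the naive state, 8 rose, 1 fell and 2 were not called (median 1.61). Of the 9 above the mES floor 6 rose and 1 fell, where 38.6% and 41.2% of all such genes did. Fgf5, the classical marker of that transition, was at the floor in mES cells and at 4.77, 4.37 and 5.35 CPM in endoderm, at least 20.3-fold higher. Otx2, a regulator of the same transition, stood at 13.6 and 15.5 CPM in mES cells and 13.4, 15.1 and 15.4 CPM in endoderm, with overlapping libraries and an edgeR adjusted p of 0.575. Of 11 genes downstream of or within the LIF pathway 9 fell and 2 rose. Socs3, a STAT3 target that restrains the pathway, went from 148 and 130.2 CPM to 44.8, 39.4 and 42.3 CPM, while Stat3 itself rose from 132 and 135 CPM to 186, 189 and 184 CPM.

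**Figure D2:**
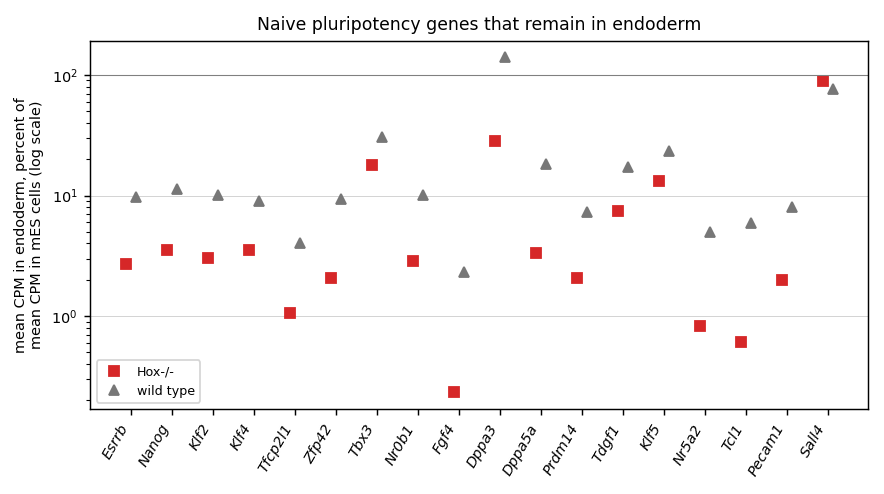
Mean CPM in endoderm as a percent of mean CPM in mES cells of the same genotype, on a log scale, for the 18 naive pluripotency genes. Squares are Hox-/- and triangles are wild type, each from 3 endoderm and 2 mES libraries; 17 of the 18 squares lie below their triangle.

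Stretches of 250 bases upstream of the start site are shown for a pair of these genes, because Oct4 and Sox2 bind neighbouring motifs in pluripotent cells and both factors fell here. They are from the RefSeq promoter table (GRCm38.p6), 5′ to 3′ on the gene's strand. Capitals mark TTTGCAT (the core of the octamer bound by Oct4) and, in Nanog, CATTGT (a Sox core, here on the other strand and so read as ACAATG), searched on both strands. The Nanog stretch is chr6:122707239-122707488 (plus strand) and the Zfp42 stretch is chr8:43307010-43307259 (minus strand).
Nanog: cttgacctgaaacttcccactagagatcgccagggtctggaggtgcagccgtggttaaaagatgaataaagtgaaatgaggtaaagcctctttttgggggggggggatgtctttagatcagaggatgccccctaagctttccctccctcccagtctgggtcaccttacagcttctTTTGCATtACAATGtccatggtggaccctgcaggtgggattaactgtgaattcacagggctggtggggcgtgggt
Zfp42: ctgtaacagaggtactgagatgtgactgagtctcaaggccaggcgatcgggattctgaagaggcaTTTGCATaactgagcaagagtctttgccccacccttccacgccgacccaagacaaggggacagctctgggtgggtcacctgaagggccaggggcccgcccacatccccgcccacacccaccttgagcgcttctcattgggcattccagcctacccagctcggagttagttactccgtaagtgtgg
In Nanog the octamer core begins 75 bases before the start site and the Sox core follows it with 1 base between them. Of 11 naive pluripotency genes matched in the table, these 2 hold the octamer core in that window, and Nanog alone holds the Sox core (9.09%). Of all 32851 windows 1355 hold the octamer core (4.12%) and 10.7% the Sox core. The octamer core is also in 2 of 11 genes of the Wnt list and 4 of 15 caudal progenitor genes, lists in which most genes rose. A gene was counted if any of its windows matched, so its share and the share of windows are unlike measures. A match in letters is a description and no test of binding.

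Primitive streak genes rose from near nothing. Of 15 tested genes on the streak list 11 rose, all at least 4-fold, 3 fell and 1 was not called (median 3.87); over all genes tested 42.7% rose and 16.1% rose at least 4-fold. Of the 10 streak genes above the mES floor 7 rose and 3 fell. T (brachyury; ENSMUSG00000062327, chromosome 17, 8434423 to 8442496), the T-box factor of streak and notochord, was at 0.598 and 0.924 CPM in mES cells and 244, 236 and 229 CPM in endoderm (log2 fold change 8.20, SE 0.289, edgeR adjusted p 1.41e-21). Mixl1, a homeobox gene of nascent mesendoderm, went from 0.598 and 0.168 CPM to 76.6, 81.99 and 93.3 CPM and Eomes, needed for definitive endoderm, from 7.097 and 7.23 CPM to 74.4, 79.7 and 82.5 CPM. Gsc, a homeobox gene of the anterior streak, was low in both cultures, at 2.61 and 1.26 CPM and 12.3, 9.84 and 13.4 CPM (log2 fold change 2.50). The ligand Fgf8 was at the floor in mES cells and reached 57.04, 43.9 and 51.3 CPM, at least 213-fold higher. The ligand Wnt3 went from the floor to 43.9, 41.1 and 47.6 CPM, at least 186-fold higher. All 3 endoderm libraries lay far above both mES libraries for each of these genes. Mesp1, of early cardiac mesoderm, had no count in mES cells and 0.284, 0.308 and 0.378 CPM in endoderm. The 3 genes that fell were Fgf4, Nodal and Foxh1.

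Definitive endoderm factors also rose, to low levels. Of 20 tested genes on that list 15 rose, 3 fell and 2 were not called (median 4.37, or 4.21 when bounds replaced the fitted values of floor genes), where 42.7% of all genes tested rose and 37.9% fell. Of the 13 members above the mES floor 9 rose and 3 fell. Sox17 (ENSMUSG00000025902, chromosome 1, 4490931 to 4497354) was at 0.149 and 0.252 CPM in mES cells, which is the floor, and 3.64, 5.11 and 5.92 CPM in endoderm, at least 20.5-fold higher. Foxa2 reached 2.78, 4.98 and 4.79 CPM (at least 17.6-fold) and Foxa1 9.66, 8.37 and 9.01 CPM (at least 37.8-fold). Both Sox17 and Foxa2 were lowest in endoderm library 1. Gata4 went from 0.448 and 0.504 CPM to 32.3, 34.7 and 32.001 CPM, Gata6 reached 8.86, 8.12 and 8.44 CPM from the floor, and the chemokine receptor Cxcr4 went from 1.64 and 0.756 CPM to 24.5, 24.2 and 27.7 CPM. These GATA factors also mark mesoderm and extraembryonic endoderm. The simple epithelial keratins were far higher, with Krt18 at 0.374 and 1.18 CPM in mES cells and 154, 144 and 146 CPM in endoderm and Krt8 at 2.24 and 2.605 CPM in mES cells and 263, 225 and 253 CPM in endoderm. Hhex, a homeobox gene of anterior endoderm, fell from 9.56 and 8.32 CPM to 1.25, 1.35 and 1.32 CPM, and Trh and Cdh1 fell as well. The summed CPM of the list was 782 to 801 in mES cells, 869.6 to 939 in Hox-/- endoderm and 1722 to 1738 in wild-type endoderm. A few abundant members make up most of it and it does not follow the endoderm factors. In Hox-/- mES cells these were Cdh1 (mean 629 CPM) and Trh (101 CPM). In endoderm Krt8, Cdh1, Krt18 and Trh averaged 247, 177, 148 and 30.8 CPM in Hox-/- and 295, 276, 241 and 256 CPM in wild type. The defining markers of the labelled lineage were thus present, but under 10 CPM each for Sox17, Foxa2, Foxa1 and Gata6. In bulk RNA, fewer cells of a type and less RNA per cell cannot be told apart.

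Later endoderm derivatives were covered by further lists. Of 24 regional gut genes 15 could be tested, 9 rose and 4 fell (5 and 4 of the 10 above the mES floor), and 5 of the 24 were at the floor in both cultures, among them Nkx2-1 of lung and thyroid. Pdx1, the pancreatic regulator, stayed at 0.284, 0.123 and 0.126 CPM. Cdx2, the first gene of this list, also marks the caudal embryo and trophoblast and is described with the caudal genes. Hnf4a stood at 2.99 and 3.95 CPM in mES cells and 1.87, 2.21 and 2.71 CPM in endoderm and was called lower (-0.69), a call that was lost without mES library 2 (edgeR adjusted p 0.113). Of 25 genes of visceral endoderm and liver 18 were tested, 12 rose and 3 fell (8 and 3 of the 13 above the mES floor). Afp was at the floor in both cultures, as were 5 further genes of that list. Ttr and Apoa1, whose products the liver secretes, stood at 0.341, 0.246 and 0.06299 CPM and 0.625, 0.308 and 0.567 CPM in endoderm. Both calls were lost when single libraries were left out, with edgeR adjusted p of 0.107, 0.0901 and 0.0664 for Ttr (without mES library 1, mES library 2 or endoderm library 1) and of 0.241, 0.0791 and 0.0601 for Apoa1 (without mES library 2, endoderm library 1 or endoderm library 3). Apob went from 0.672 and 0.756 CPM to 12.5, 18.5 and 14.1 CPM and Gpc3 from 42.8 and 39.9 CPM to 555, 594 and 585 CPM, whereas Apoe fell from 408 and 343 CPM to 69.99, 61.6 and 73.8 CPM. Among 13 parietal endoderm and basement membrane genes 9 rose and 3 fell (8 and 3 of the 12 above the mES floor). The collagen IV chain Col4a1 went from 6.65 and 8.15 CPM to 259, 290.3 and 270.4 CPM, and the laminin chain Lamb1 from 40.2 and 42.5 CPM to 410.4, 423 and 427 CPM, while Lamc1 (-0.79) and Nid1 (-3.98) fell.

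**Figure D3:**
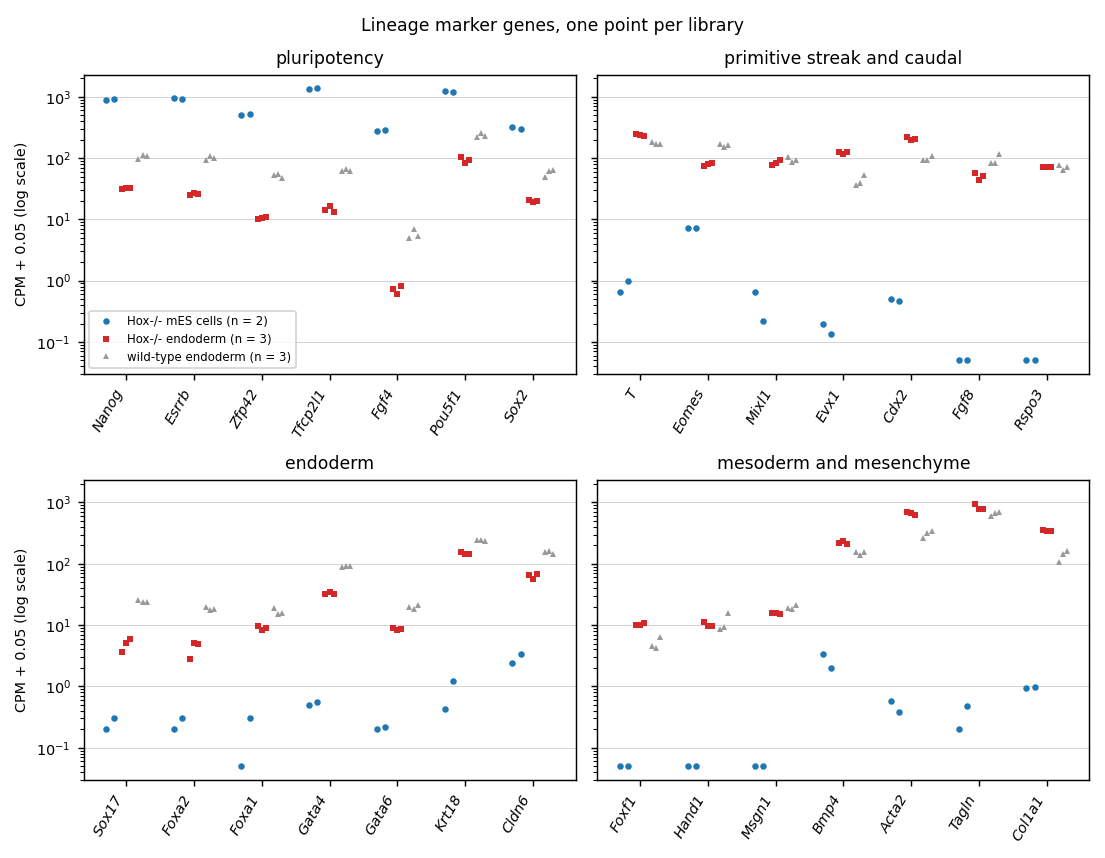
CPM plus 0.05 on a log scale for 28 marker genes, 1 point per library, in Hox-/- mES cells (circles, n = 2), Hox-/- endoderm (squares, n = 3) and wild-type endoderm (triangles, n = 3). In each panel the circles and squares of a gene are separate, with the pluripotency genes lower and the other genes higher in endoderm than in mES cells. The 28 genes were picked from the lists and do not stand for them. Hhex, Trh, Cdh1, Nodal, Foxh1 and Cdx1, which fell, are not shown.

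Most caudal progenitor genes rose. Of 18 tested genes 16 rose, where 42.7% of all genes did, 14 of them at least 4-fold, where 16.1% of all did, and 2 fell, with a median of 5.43. Of the 15 above the mES floor 13 rose and 2 fell. Cdx2 (ENSMUSG00000029646, chromosome 5, 147300805 to 147307270), which directs posterior identity, was at 0.448 and 0.4201 CPM in mES cells and 218, 197 and 207 CPM in endoderm (log2 fold change 8.79, SE 0.432, edgeR adjusted p 1.49e-20). Evx1, a homeobox gene at the edge of the Hoxa cluster, was at the floor in mES cells and at 127, 118 and 127 CPM in endoderm, at least 520.3-fold higher. Rspo3, a ligand that strengthens Wnt signals, had no count in mES cells and 71.6, 70.9 and 72.1 CPM in endoderm, at least 300.5-fold. The 3 endoderm libraries differed little for any of these genes. Greb1 went from 0.523 and 0.4201 CPM to 351, 437 and 333 CPM, with endoderm library 2 the highest, and Wnt5b from 2.54 and 2.18 CPM to 118, 109 and 117 CPM. The genes that fell were Sox2 and Cdx1, the latter from 25.8 and 24.3 CPM to 9.89, 7.69 and 7.69 CPM. The 3 Cdx genes thus did not move together: Cdx2 and Cdx4 (0.374 and 0.756 CPM to 30.1, 31.3 and 26.3 CPM) rose and Cdx1 fell.

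Most mesoderm genes of these lists were at or near the floor in mES cells. Of 18 genes of lateral and intermediate mesoderm 14 were at the mES floor. Of these, 13 were tested and could only be higher, and Pax8 was at the floor in endoderm too. The 4 tested genes above the mES floor were Bmp4, Gata4, Twist1 and Msx2, and each rose at least 4-fold. Bmp4 went from 3.29 and 1.93 CPM to 221, 233 and 213 CPM (log2 fold change 6.31, SE 0.197, edgeR adjusted p 7.1e-20). Foxf1, a forkhead factor of splanchnic mesoderm, had no count in either mES library and reached 10.1, 10.1 and 10.7 CPM, at least 43.4-fold higher. Hand1, of extraembryonic and lateral mesoderm, reached 11.1, 9.53 and 9.701 CPM in the same way (at least 42.5-fold). These levels were close to each other in the 3 endoderm libraries. Prrx1, of limb and lateral mesenchyme, went from no count to 15.6, 17.96 and 15.1 CPM (at least 68.2-fold). The homeobox gene Msx1 reached 58.8, 58.2 and 66.5 CPM from the floor and Twist1 went from 0.224 and 0.588 CPM to 29.8, 28.2 and 29.4 CPM. Of 19 presomitic and somite genes 10 were at the mES floor, 4 of them in endoderm too. Among the 8 tested genes above the mES floor 5 rose, each at least 4-fold, 1 fell and 2 were not called. Msgn1, which drives presomitic mesoderm, went from no count to 15.5, 15.9 and 14.9 CPM (at least 64.7-fold), Tbx6 from 0.523 and 0.756 CPM to 7.33, 7.44 and 6.74 CPM, and Pax3 from no count to 15.1, 17.3 and 16.1 CPM (at least 67.8-fold).

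Node and notochord genes overlap with those of streak and endoderm. Of its 10 tested genes 4 were at the mES floor, Foxa2 and Shh among them, and the 6 above it rose, 3 of them at least 4-fold. Shh, the signal that notochord and endoderm send, went from no count to 1.42, 1.29 and 1.83 CPM (at least 6.35-fold), and Nog, a BMP inhibitor, from no count to 35.96, 26.9 and 28.03 CPM (at least 127-fold). Noto, the homeobox gene most particular to the node, had no count in any of the 5 libraries.

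Heart, vessel and blood genes were mixed. Of 12 tested cardiac genes 8 rose and 3 fell, and of the 6 above the mES floor 2 rose and 3 fell. The actin Actc1 reached 118, 111 and 108 CPM from the floor (at least 471-fold), and the heart regulator Nkx2-5 reached 0.909, 1.05 and 1.45 CPM. The sarcomere genes Myl7, Myh6 (-2.47) and Ttn fell, Myl7 to the floor (at least 11.8-fold lower). Ttn, which encodes titin, went from 58.9 and 64.8 CPM in mES cells to 0.398, 0.369 and 0.189 CPM. Of 12 tested endothelial and blood genes 5 rose and 5 fell (2 and 5 of the 9 above the mES floor). Runx1, the regulator of blood stem cell emergence, rose from the floor to 76.7, 79.7 and 76.3 CPM (at least 326-fold) and Lmo2 from 0.224 and 0.336 CPM to 28.2, 29.8 and 27.7 CPM. Cdh5, the cadherin of endothelium, stood at 1.76, 0.7996 and 1.01 CPM and Tal1, a regulator of blood and vessel formation, at 0.625, 0.554 and 0.441 CPM in endoderm. Pecam1, which mES cells also express, fell from 173 and 181 CPM to 3.58, 3.998 and 2.96 CPM.

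Mesenchymal structure genes were among the most abundant RNAs gained. Of 18 tested mesenchymal genes 16 rose, none fell and 2 were not called (median 4.77). Above the mES floor 14 of 16 rose, where 38.6% of all such genes did. Tagln, an actin-binding protein of smooth muscle, was at 0.149 and 0.4201 CPM in mES cells and 928, 786 and 793 CPM in endoderm (log2 fold change 11.43, SE 0.632, edgeR adjusted p 2.5e-21). Smooth muscle actin Acta2 went from 0.523 and 0.336 CPM to 712, 671 and 632 CPM and the collagen chain Col1a1 from 0.896 and 0.924 CPM to 351, 346 and 337 CPM. The summed CPM of the list was 2407 to 2502 in mES cells and 7009 to 7745 in endoderm. Cadherins switched: Cdh1 (E-cadherin) fell from 624 and 633 CPM to 177, 178 and 178 CPM, while Cdh2 (N-cadherin) rose from 6.13 and 5.04 CPM to 223, 224 and 223 CPM and Cdh11 from 0.299 and 0.08403 CPM to 175, 178 and 174 CPM. Most epithelial genes rose at the same time (15 of the 21 above the mES floor, where 38.6% of all such genes did). Of 22 tested 16 rose and 4 fell (median 1.06), with the splicing regulator Esrp1 rising from the floor to 29.4, 29.3 and 29.5 CPM (at least 123-fold), Epcam from 16.6 and 17.8 CPM to 63.7, 62.6 and 61.2 CPM and the claudin Cldn6 from 2.32 and 3.36 CPM to 64.6, 56.9 and 68.2 CPM.

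Neural and other ectodermal genes gave no common direction. Of 18 neural progenitor genes 10 were tested, 7 rose and 2 fell (2 and 2 of the 5 above the mES floor), and 7 of the 18, Pax6 and Olig2 among them, were at the floor in both cultures. Nes, an intermediate filament that mesoderm also makes, went from 30.03 and 32.01 CPM to 262, 239 and 227 CPM, whereas Sox1, the early neural plate marker, fell from 4.11 and 3.78 CPM to 0.227, 0.123 and 0.06299 CPM. Of 11 tested neuronal genes 6 fell and 2 rose (median -1.15), with Stmn2 going from 179 and 188 CPM to 13.8, 13.7 and 15.2 CPM and Mapt from 72.2 and 68.6 CPM to 0.795, 0.738 and 0.882 CPM. Among 11 neural crest genes 6 rose and 3 fell (2 and 3 of the 7 above the mES floor). Ets1, which mesoderm shares, reached 86.1, 83.7 and 80.3 CPM and Foxd3, which mES cells share, fell from 17.5 and 14.2 CPM to 0, 0.246 and 0 CPM. Of 8 tested surface ectoderm genes 6 rose and 2 fell, and of 9 trophoblast genes 6 rose and 3 fell. Above the mES floor 5 of 7 surface ectoderm genes rose and 2 fell, and 4 of 7 trophoblast genes rose and 3 fell. Among all genes above that floor 38.6% rose and 41.2% fell. The trophoblast genes that rose included Cdx2, Eomes and Hand1, which the streak and mesoderm share, and Elf5, which is more particular to trophoblast, did not pass 1 CPM in any Hox-/- library.

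**Figure D4:**
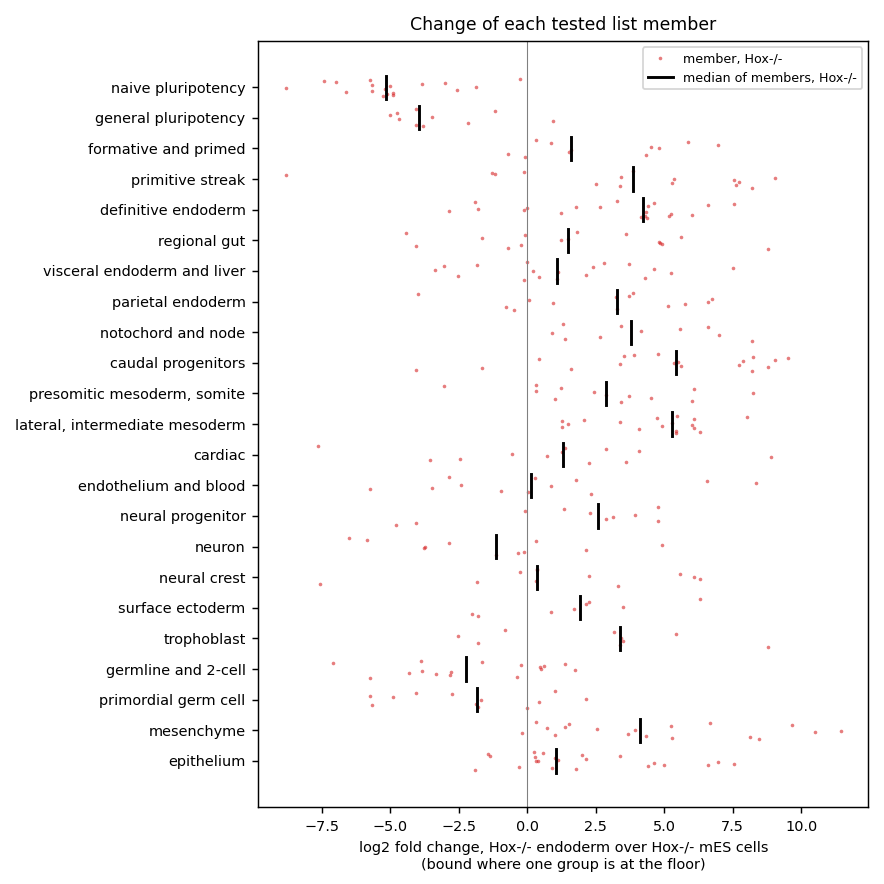
Log2 fold change of each tested member of 23 lineage lists, Hox-/- endoderm over Hox-/- mES cells, 1 point per gene, with the list median as a vertical bar. Where one culture is at the floor, the bound is plotted; both pluripotency lists, the neuron list and both germline lists have medians below 0.

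Of 16 tested genes of germline and 2-cell stages 9 fell, where 37.9% of all genes tested did, 2 rose and 5 were not called (median -2.23). Dazl, an RNA-binding protein of germ cells, went from 23.5 and 20.5 CPM to 0.398, 0.431 and 0.441 CPM, Tex19.1 from 38.8 and 39.997 CPM to 1.99, 2.89 and 3.78 CPM and Rpl10l from 158 and 135 CPM to 0.625, 1.35 and 1.45 CPM. Of 12 primordial germ cell genes, several of them also pluripotency genes, 8 fell and 2 rose.

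The pathways that the medium addresses were read through lists that mix target genes with ligands, receptors and inhibitors. On the Nodal and Activin list 7 of 14 tested genes rose and 6 fell. The feedback inhibitor Lefty1 rose from 28.2 and 24.3 CPM to 153, 117 and 137 CPM. The ligand Nodal fell from 106 and 102 CPM to 44.4, 41.7 and 47.7 CPM and its co-receptor Tdgf1 from 476 and 514 CPM to 34.1, 40.5 and 35.7 CPM. Lefty2 was called higher (0.26), a call that was lost without mES library 2 (edgeR adjusted p 0.0767).

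Most genes of the Wnt list, which holds targets, ligands and secreted inhibitors, rose. Both media contain CHIR99021. Of 18 genes 14 rose, 10 of them at least 4-fold, and 3 fell (median 3.08, or 2.75 when bounds replaced the fitted values of floor genes). Above the mES floor 12 of 16 rose, 8 of them at least 4-fold, and 3 fell. Among all genes above that floor 38.6% rose, 9.89% rose at least 4-fold and 41.2% fell. Axin2, the usual readout of the pathway, went from 40.9 and 37.8 CPM to 269, 257 and 254 CPM (log2 fold change 2.64, SE 0.06701, edgeR adjusted p 3.86e-18). Lef1, a nuclear effector, rose from 1.195 and 1.18 CPM to 167, 161 and 149 CPM, the inhibitor Nkd1 from 0.747 and 1.01 CPM to 247, 221 and 228 CPM, the secreted inhibitor Dkk1 from 0.672 and 0.336 CPM to 89.1, 100.3 and 101 CPM and the ligand Wnt5a from 0.448 and 0.336 CPM to 233, 234 and 223 CPM. Sfrp1, another secreted inhibitor, fell from 198 and 197 CPM to 10.1, 11.6 and 9.57 CPM.

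The upstream stretches of T and Sp5 are shown because both rose with this list and both hold CTTTGA, a core of the motif bound by the Wnt effectors TCF and LEF, marked in capitals (read as TCAAAG where it lies on the other strand). They come from the same RefSeq table (GRCm38.p6), chr17:8434173-8434422 for T and chr2:70474673-70474922 for Sp5, both on the plus strand.
T: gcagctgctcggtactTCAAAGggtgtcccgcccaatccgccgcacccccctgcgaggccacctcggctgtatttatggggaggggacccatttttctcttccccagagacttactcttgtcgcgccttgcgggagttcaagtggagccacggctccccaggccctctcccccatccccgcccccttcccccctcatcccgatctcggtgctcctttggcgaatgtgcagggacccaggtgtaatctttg
Sp5: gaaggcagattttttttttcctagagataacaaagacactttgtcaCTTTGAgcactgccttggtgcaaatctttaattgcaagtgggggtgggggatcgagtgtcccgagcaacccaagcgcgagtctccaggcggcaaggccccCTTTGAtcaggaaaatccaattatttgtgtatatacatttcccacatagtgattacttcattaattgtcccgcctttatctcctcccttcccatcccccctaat
In Sp5, a transcription factor that went from 3.81 and 3.78 CPM to 54.2, 39.6 and 45.04 CPM, the motif starts 204 and 104 bases before the start site. Of 11 Wnt list genes that the table holds, Dkk1, Lef1, Sp5 and T (4 in all) have it, and 13.8% of all 32851 windows do. It is also in 4 of 15 caudal progenitor genes and 1 of 11 naive pluripotency genes. Genes were again counted by any of their windows, unlike the share of windows. Nothing about binding was measured.

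Genes of the FGF feedback and BMP lists mostly rose as well. Of 18 genes of the FGF and ERK list 14 rose and 3 fell (median 2.45), in cultures that differ in the MEK inhibitor. Above the mES floor 12 of 16 rose and 3 fell, where 38.6% and 41.2% of all such genes did. The ERK phosphatase Dusp6 went from 8.37 and 7.14 CPM to 196, 179 and 183 CPM. Its relative Dusp4 went from 1.05 and 1.01 CPM to 132, 114 and 122 CPM, and the antagonist Spry4 from 0.747 and 0.588 CPM to 45.8, 43.3 and 45.5 CPM. Etv5, an ETS factor that naive cells express, fell from 479 and 476 CPM to 125, 116 and 118 CPM. Of 16 BMP ligands, targets and inhibitors 12 rose and 4 fell (median 3.84), and of the 12 above the mES floor 8 rose and 4 fell. The BMP target Id1 went from 3.81 and 3.19 CPM to 59.4, 52.8 and 54.99 CPM, Id3 from 4.48 and 5.46 CPM to 112, 99.8 and 120.0 CPM, and Bmp2 from no count to 34.8, 36.3 and 35.3 CPM (at least 149-fold), while Id4 fell from 8.67 and 9.495 CPM to 0.455, 0.923 and 1.13 CPM. Of 13 tested retinoic acid genes 9 rose and 2 fell (7 and 2 of the 11 above the mES floor). Cyp26a1, which degrades retinoic acid, rose from 0.299 and 0 CPM to 41.2, 38.6 and 42.5 CPM, and Aldh1a2, which makes it, stood at 2.02 and 2.35 CPM in mES cells and 2.61, 3.44 and 2.46 CPM in endoderm (edgeR adjusted p 0.313).

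Imprinted genes, which are expressed from 1 parental copy, included H19, the largest gain of a single RNA after Eef1a1. Of 23 genes 17 rose, 13 of them at least 4-fold, 4 fell and 2 were not called (median 2.49). Above the mES floor 15 of 21 rose, 11 of them at least 4-fold, and 4 fell. Among all genes above that floor 38.6% rose and 9.89% rose at least 4-fold. The summed level of the 23 genes was 1908 to 1974 CPM in mES cells and 12997 to 14402 CPM in endoderm. H19 (ENSMUSG00000000031, chromosome 7, 142575529 to 142578143), a noncoding RNA, was at 2.09 and 2.69 CPM in mES cells and 4047, 4228 and 4181 CPM in endoderm (log2 fold change 10.69, SE 0.2402, edgeR adjusted p 8.08e-22), and its neighbour Igf2, a growth factor, reached 56.6, 47.7 and 40.2 CPM from the floor, at least 202-fold. Peg3 stood at 59.02 and 61.8 CPM in mES cells and 2628, 2923 and 2526 CPM in endoderm and Peg10 at 20.1 and 24.8 CPM in mES cells and 1578, 1647 and 1488 CPM in endoderm. The noncoding RNA Meg3 went from 315 and 324 CPM to 1291, 1702 and 1106 CPM, with endoderm library 2 the highest. Grb10, an inhibitor of insulin and growth factor receptors, was one of the 4 that fell, from 43.5 and 47.1 CPM to 20.4, 22.3 and 21.7 CPM. H19, Igf2 and Meg3 share positions with further annotated genes, and reads could have been counted for either. The same holds for Sox17, Gata6, Evx1, Rspo3, Bmp4, Runx1, Tagln, Axin2, Lef1, Otx2, Pou5f1 and Hmga2, each with an annotated gene on the opposite strand.

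**Figure D5:**
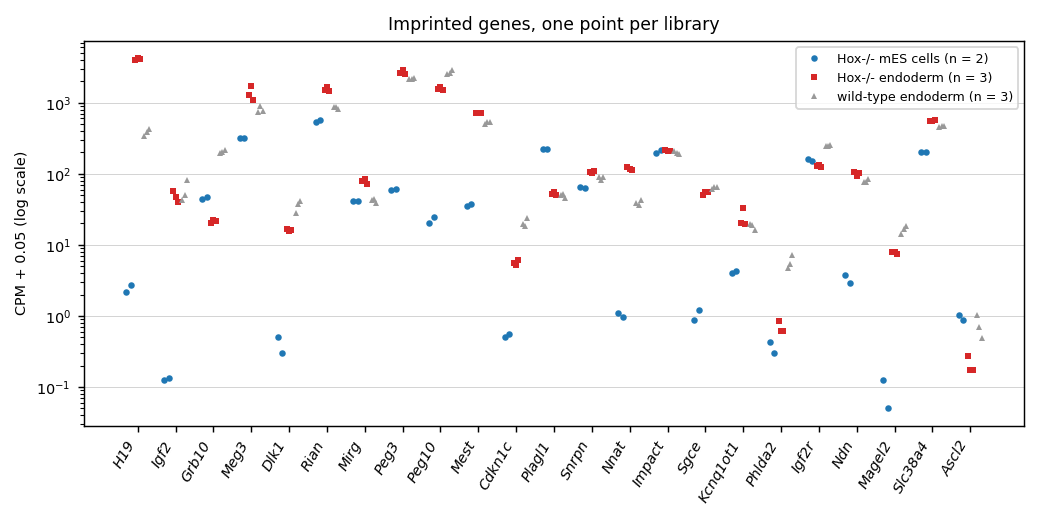
CPM plus 0.05 on a log scale for the 23 imprinted genes, 1 point per library, in Hox-/- mES cells (circles), Hox-/- endoderm (squares) and wild-type endoderm (triangles). H19, Peg3, Peg10, Meg3 and Rian lie above 1000 CPM in Hox-/- endoderm, and Grb10 lies below its mES level there and above it in wild-type endoderm.

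Enzymes of DNA methylation and its removal changed by member. Of 12 genes 5 rose and 7 fell. Tet1, which oxidises methylcytosine, fell from 457 and 470.0 CPM to 41.7, 47.8 and 34.3 CPM. Tet2 fell from 146 and 163 CPM to 14.6, 18.1 and 13.2 CPM, and Tet3 rose from 4.63 and 4.62 CPM to 78.3, 81.8 and 70.99 CPM. The methyltransferase Dnmt3a rose from 78.3 and 79.2 CPM to 240.4, 243 and 240.0 CPM and Dnmt3b fell from 136 and 143 CPM to 91.4, 92.1 and 88.7 CPM. Uhrf1, which guides maintenance methylation, fell from 1053 and 1004 CPM to 272, 265 and 279 CPM.

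Genes of growth and metabolism differed by smaller medians. Their counts stand against 42.7% of all genes tested that rose and 37.9% that fell. Of 27 replication and mitosis genes 21 fell and 6 rose (median -0.86). The replicative helicase subunit Mcm5 went from 702 and 687 CPM to 215, 214 and 216 CPM and the G1 cyclin Ccne1 from 170.1 and 160.3 CPM to 43.9, 40.3 and 40.8 CPM. Those that rose included the cyclin Ccnd2, from 1.34 and 1.34 CPM to 258, 246 and 239 CPM, and the inhibitors Cdkn1a (165 and 153 CPM to 656, 579 and 641 CPM) and Cdkn2b (4.03 and 3.61 CPM to 38.01, 37.2 and 36.7 CPM). Of 18 tested glycolysis and hypoxia genes 13 fell and 3 rose (median -0.85), with the hexokinase Hk2 going from 462 and 443 CPM to 77.8, 83.4 and 84.8 CPM. Of 22 sterol and lipid synthesis genes 15 rose and 3 fell (median 0.56), with Cyp51 from 103 and 106 CPM to 305, 315 and 320.2 CPM. Of 15 p53 target genes 8 rose and 4 fell (median 0.25), and of the 14 above the mES floor 7 rose and 4 fell. Ribosomal protein genes had a median of 0.22, with 14 of 22 called higher and 3 lower. Among 9 tested mitochondrially encoded genes 1 rose and 1 fell.

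Levels of different regulators can be set against each other only per transcript length, in the FPKM that the authors computed within the endoderm table. The 8 genes given here were chosen after their values were seen. In the 3 Hox-/- endoderm libraries T stood at 140.4, 104 and 103 FPKM and Cdx2 at 94.1, 84.1 and 90.2 FPKM. Pou5f1 still stood at 75.7, 61.99 and 70.04 FPKM. Eomes followed at 20.3, 21.5 and 22.8 FPKM, Msgn1 at 18.7, 20.7 and 19.8 FPKM and Gata4 at 10.7, 12.3 and 11.2 FPKM. Sox17 stood at 2.38, 3.96 and 4.19 FPKM and Foxa2 at 1.28, 2.36 and 2.25 FPKM. Every library thus had T above Eomes and Eomes above Sox17. The 8 do not stand for their lists, since other streak and caudal regulators had lower means: Gsc 9.43, Cdx1 4.77, Tbx6 3.601 and Lhx1 2.27 FPKM (n = 3).

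Wild-type cells under the same protocol changed largely the same genes. Of the 2612 genes that rose at least 4-fold in Hox-/- cells 2526 were also called higher in wild-type endoderm against wild-type mES cells, and 1562 of the 1607 that fell were also called lower; in wild type 79.9% of all genes were called, 15.9% rose at least 4-fold and 8.19% fell at least 4-fold. The 2 comparisons share no library, but they set the same tables against each other in a joint fit. A shift between the tables would thus enter both. The lines also differ besides the Hox deletion: the 4 listed Y-linked genes summed to 169 to 185 CPM in wild-type mES cells and 114 to 126 CPM in wild-type endoderm, and to at most 0.168 CPM in any Hox-/- library. Differences between the lines can thus not be told apart from those of the Hox genotype. Whether the change differed was tested as the genotype by differentiation interaction, in which a shift between the tables that both genotypes share cancels. It was called for 3921 genes (24.1%), 1890 (11.6%) with a more positive and 2031 (12.5%) with a more negative change in Hox-/-. The split depends on scaling, since upper-quartile factors gave 34.8% positive in place of 48.2%. Of the genes changed at least 4-fold in Hox-/-, 1117 (26.5%) were among them, close to the share of all genes.

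Naive pluripotency genes fell further in Hox-/- cells than in wild type. The interaction was negative for 17 of 18 genes, where 12.5% of all genes were, and positive for Sall4, and the median change was -5.17 in Hox-/- and -3.44 in wild type. Nanog kept 3.52% of its mES level in Hox-/- endoderm and 11.4% in wild type (interaction -1.66, SE 0.0787, edgeR adjusted p 1.76e-11). Caudal progenitor genes rose further from their mES levels, with medians of 5.43 and 3.78. Of 18 interactions 11 were positive, where 11.6% of all were, and 1 was negative. An interaction compares changes, so lower mES levels and higher endoderm levels in Hox-/- both make it more positive. Evx1 was higher in Hox-/- than in wild-type endoderm (124 against 43.1 CPM). Sp5 was not (46.3 ± 7.37 against 49.7 ± 7.44 CPM), but its mES level was lower (3.796 against 13.8 CPM). How the list divides between these cases was not tested. Cdx2 had 207 ± 10.7 CPM (SD, n = 3) in the Hox-/- and 98.8 ± 7.997 CPM in the wild-type endoderm libraries, from a mES level that was also lower in Hox-/- (0.434 ± 0.0199 against 2.52 ± 0.178 CPM; interaction 3.61, edgeR adjusted p 6.77e-07). Of the 18 Wnt list genes 8 had a positive and 3 a negative interaction.

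Endoderm genes went the other way in part. On the definitive endoderm list 7 of 20 interactions were negative and 1 positive, and on the visceral endoderm and liver list 8 of 18 were negative and 1 positive. Over all genes 12.5% were negative and 11.6% positive. The skew was not particular to endoderm: 10 of 22 ribosomal protein genes and 9 of 18 glycolysis and hypoxia genes were negative and none positive. Other lists went the opposite way, such as the p53 targets with 9 of 15 positive and none negative. Sox17 was measured at 4.89 ± 1.16 CPM with the Hox-/- genotype and at 24.5 ± 0.848 CPM without it, but its interaction did not pass the threshold (edgeR adjusted p 0.0903), and its mES level was at the floor in Hox-/-. Foxa2 gave 4.18 ± 1.22 and 18.6 ± 1.16 CPM (edgeR adjusted p 0.0958), with mES levels at the floor in both genotypes. Cldn6 passed (63.2 ± 5.78 against 152 ± 8.04 CPM, interaction -1.22, edgeR adjusted p 0.00408), and so did Apob (15.02 ± 3.08 against 93.2 ± 11.1 CPM, interaction -2.59, edgeR adjusted p 0.0071). Otx2, not called in Hox-/-, rose in wild type (log2 fold change 2.66; interaction -2.74, edgeR adjusted p 8.44e-10). For lateral and intermediate mesoderm 3 of 17 interactions were positive, where 11.6% of all genes were, and none was negative. Of these 17 genes 13 were at the floor in Hox-/- mES cells, so the count does not set them apart from all genes.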

How the data were processed

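RNA was read from poly-A selected, stranded libraries. The authors deposited whole-number counts and FPKM values per gene in 1 table of each kind per culture. Per the submitters' processing notes, cutadapt 1.16, STAR and Cufflinks 2.2.1 were used with build mm10; the counting tool and its use of strand are not given in the sources used here. FPKM, in which fragments are divided by length and depth, as deposited by the authors, was used only to set genes within the endoderm table against each other.

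The mES and endoderm counts were joined by gene identifier (55055 genes). The 10 libraries in 4 groups (Hox-/- and wild type, mES cells and endoderm) entered 1 fit in edgeR 4.0.16 (R 4.3.3), with TMM factors, filterByExpr (16251 genes kept) and the quasi-likelihood test, Benjamini-Hochberg adjusted over all genes, called at 0.05. CPM was computed from the counts over library totals. The floor is reached where no library of a group exceeds 3 counts; folds against such a group are bounds taken at 3 counts per library. The test was tried on simulated counts with 200 changed genes among 15529. Of these 200, 98% to 100% per fold size were called, and 4.78% of calls were false. In the data 80.6% of genes were called, and performance with so large a share of changed genes was not tested. Motifs were searched as printed on both strands.

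Members and lists (39 lists) were chosen with earlier results of these data known. Named genes were, per direction, the 12 with the smallest p among those changed at least 4-fold without overlap, the 5 with the largest CPM difference, the first 4 and up to 5 further called members of each list, and 5 per direction by interaction. Sall4, Klf5, Foxa1, Lhx1, Mesp1 and genes named as the members behind a small count fall outside that rule and were chosen after their values were seen. Alternatives were other scaling factors (RLE, library totals, upper quartile), no filter, a filter at 10 counts, DESeq2 1.42.0, a test against a 2-fold change, a replicate block, the 5 Hox-/- libraries alone, and leaving out each library.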

Additional observations from a re-analysis of the deposited data

Results flagged for a closer look

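The differentiation change differed between Hox-/- and wild type for 3921 of 16251 genes (edgeR adjusted p under 0.05), as a test of the difference itself. Given here as log2 values (Hox-/- change minus wild-type change) are the 5 genes per direction with the smallest p in that test. Only genes differing at least 2-fold were ranked. The ranking is by p and not by size, and Cdx2 differed by more than any of the 5 positive genes. Hmga2 (1.44) and Axin2 (1.66) rose further in Hox-/- cells. The tubulin gene Tubb3 differed by 3.23 and fell in both genotypes, to 47.6% of its mES level in Hox-/- and to 5.18% in wild type. Pik3r3, a regulatory subunit of PI3 kinase, differed by 2.13 and the membrane protein gene Emp1 by 2.71. The naive pluripotency genes Dppa5a (-2.43) and Zfp42 (-2.15) and the dehydrogenase gene Tdh (-2.17) fell further in Hox-/- cells. Emb, a cell adhesion gene, differed by -3.02. Grb10 differed by -3.22 and moved in opposite directions: it went from 45.3 ± 2.53 to 21.5 ± 0.989 CPM in Hox-/- and from 45.2 ± 1.79 to 205 ± 7.83 CPM in wild type (SD, 2 mES and 3 endoderm libraries each).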

How the results depend on the processing

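Over 19 alternatives, the number of genes called in Hox-/- endoderm against mES cells stayed within 1.5 times 13101 except when tested against a 2-fold change, which left 5944; that test also left 282 of the 3921 genotype differences, since it asks for a larger change. The number changed at least 4-fold stayed within 1.5 times 4219 under each of them. Leaving out 1 library at a time gave 12362 to 13380 called genes, 4110 to 4555 changed at least 4-fold, 2726 to 4040 genotype differences and a summed Hox level of 24.5 to 27.5 CPM. DESeq2 called 12401 genes, 4204 of them at least 4-fold, and 3124 genotype differences. The replicate numbers pair only 2 mES libraries with 2 endoderm libraries and no label says that a number marks a shared culture; a fit with the replicate number as a block called 13041 genes, 4237 at least 4-fold, and 4022 genotype differences (correlation of same-numbered deviations 0.119 and 0.0900). Otx2, not called, took a log2 fold change of 0.0103 under library totals alone and of -0.18 to 0.0205 with 1 library left out. The median of the endothelial and blood list, 0.15 in the report's fit, was -0.48 with at least 10 counts required, -0.00864 with the 5 Hox-/- libraries alone and -0.10 to 0.34 with 1 library left out; that of the mitochondrially encoded genes was -0.0428 to 0.28 with 1 library left out. The cause of these changes was not tested.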

Other observations

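Some genes not described above were chosen after their values were seen. Pax2, a paired box gene of the early kidney, was at the floor in mES cells and reached 3.12, 2.09 and 2.205 CPM in endoderm. The immediate early genes Egr1 and Fos rose from 0.299 and 0.168 CPM to 16.1, 12.98 and 12.3 CPM and from 1.05 and 0.8403 CPM to 8.92, 6.705 and 7.62 CPM. Among the cell cycle inhibitors Cdkn2a, which encodes p16 and p19Arf, rose from 13.4 and 12.4 CPM to 79.9, 63.9 and 73.3 CPM. Slc38a4, an imprinted amino acid transporter gene, rose from 199.9 and 204 CPM to 552, 556 and 567 CPM.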
